A study of Arabidopsis thaliana with 12 samples.

Results

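The genes described here are 4 Arabidopsis thaliana genes of plastid pigment and cofactor synthesis, HEMA3, SIRB, CHLM and Z-ISO. They were chosen as array features 1995, 353, 2091 and 1756, each of which carries 1 gene in GEO's platform annotation, and they are 4 of the 692 features with 1 gene among 3439 on the array. All 4 passed the filter on low values. RNA came from wild-type plants of the ecotype Wassilevskija, in 6 samples of plants that received proline at 100 mM over 3 h and 6 samples of plants given water. The labels state a duration for the proline plants alone, so proline and any difference in time cannot be told apart. They name no plant part, growth condition or age, and do not say whether replicates are separate plants, and the p-values below reflect sample spread that could be technical.

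Chlorophyll, haem and sirohaem are tetrapyrroles made in the plastid from glutamate. Glutamyl-tRNA reductase, encoded by HEMA genes, makes the first committed precursor, and the common pathway then branches at uroporphyrinogen III towards sirohaem and further on, at protoporphyrin IX, towards haem or chlorophyll. Carotenoids are plastid isoprenoids that share the geranylgeranyl precursor with the tail of chlorophyll and protect it from excess light. Glutamate is also the amino acid from which proline is made and to which it is broken down.

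Features without a value above 0 in at least 4 samples of each group were not tested, which left 2861. Each array listed between 453 and 534 features at 0. Of 11 green tissue marker genes, 4 had a feature of their own (LHB1B2, PSBW, PSAN and PRK), and all 4 were above 0 on every array. Their summed intensity ran from 69.4 to 89.8 in proline samples and from 55.1 to 66.1 in water samples, most of it from PSBW. They did not move one way: after normalization PSBW was higher (log2 0.58, limma, adjusted p = 0.00120), PSAN and PRK were lower (log2 -0.80 and -0.43, limma, adjusted p = 0.00249 and 0.0184) and LHB1B2 had a log2 change of -0.26 (limma, adjusted p = 0.223). As deposited these changes were 0.56, -0.55, -0.19 and -0.15, and only PSBW and PSAN passed (limma, adjusted p = 5.78e-04 and 0.0148). Their part in the changes of the 4 genes below was not tested. None of the 6 root marker genes had one, so the share of roots in the samples could not be checked. In bulk samples fewer cells of a type and less RNA per cell cannot be told apart. The spread of the array medians on the log2 scale was 0.35. Over all tested features the log2 change had a median of -0.12 after quantile normalization and 0.057 as deposited, so each change below is given on both scales.

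SIRB, CHLM and Z-ISO were lower after proline on both scales, and HEMA3 was lower only after normalization. Among all tested features 25.9% were lower past the threshold after normalization and 16.9% as deposited, while 18.3% and 24.5% were higher (limma, Benjamini-Hochberg adjusted p under 0.05). The members numbered 4 lower of 4 after normalization and 3 lower of 4 as deposited, with none higher in either. Setting these counts beside the shares of all features is no test, since earlier results of these data were known when the members were chosen. Their median log2 change was -0.58 after normalization and -0.49 as deposited. Only 4.51% of the tested features had a more negative normalized change than Z-ISO, 15.4% had one more negative than CHLM, 23.3% than SIRB and 35.9% than HEMA3. As deposited these shares were 4.47% for Z-ISO, 17.7% for CHLM, 21.2% for SIRB and 50.4% for HEMA3, which places HEMA3 in the middle of all features.

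**Figure D1:**
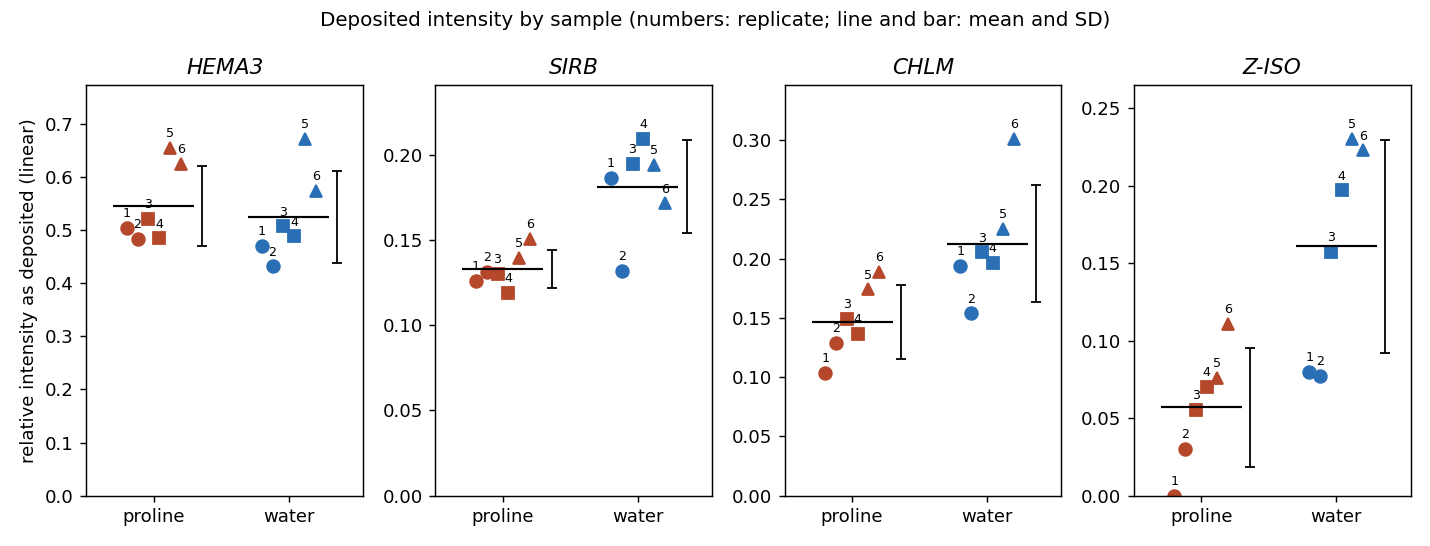
Deposited relative intensity (linear, from 0) of each gene in the 6 proline and the 6 water samples. Numbers give the replicate, circles mark replicates 1 and 2, squares 3 and 4, triangles 5 and 6, and lines and bars show the mean and SD. The proline means lie below the water means for SIRB, CHLM and Z-ISO, while those of HEMA3 differ by less than their SD.

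HEMA3 (AT2G31250) encodes a glutamyl-tRNA reductase, the enzyme at the entry of the tetrapyrrole pathway. Its deposited intensity had a lowest, median and highest value of 0.483, 0.513 and 0.655 in proline samples, against 0.432, 0.498 and 0.673 in water samples. The groups overlapped almost completely, and the 2 highest samples of each group were replicates 5 and 6. Its mean intensity was 0.546 ± 0.0754 after proline and 0.524 ± 0.0867 in water (SD, n = 6 each). As deposited its log2 change was 0.062 ± 0.13 SE (limma, adjusted p = 0.717), and proline was above water for 4 of 6 replicate numbers. After quantile normalization the change was -0.30 ± 0.11 SE (limma, adjusted p = 0.0459), and proline was below water for 6 of 6 numbers. The call on HEMA3 therefore exists on the normalized scale alone among the scalings compared. With each array centred on its median the change was -0.13 (limma, adjusted p = 0.336), and after cyclic loess it was -0.22 (limma, adjusted p = 0.135). The normalized call was also lost without any of proline replicates 1 to 4 or water replicates 3 to 6, at adjusted p of up to 0.0933 in limma. The genes HEMA1 and HEMA2, which encode the same enzyme, had no feature of their own, and whether their RNA also binds feature 1995 was not tested.

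SIRB (AT1G50170) encodes the sirohydrochlorin ferrochelatase, which inserts iron in the last step towards sirohaem, the cofactor of nitrite and sulfite reductases. Its deposited intensity had a lowest, median and highest value of 0.119, 0.130 and 0.151 in proline samples, against 0.132, 0.190 and 0.209 in water samples. All water samples but replicate 2, at 0.132, were above the highest proline sample. The coefficient of variation was 8.37% in proline samples and 15.0% in water samples, a difference that was not tested. The water figure includes the low replicate 2, while the other water samples lay between 0.171 and 0.209. After normalization SIRB was 1.43-fold lower (log2 -0.51 ± 0.12 SE, limma, adjusted p = 0.00541), and as deposited it was 1.35-fold lower (log2 -0.44 ± 0.12 SE, limma, adjusted p = 0.00932). By replicate number, the log2 difference of the deposited values was -0.82 in replicate 4 and -0.0067 in replicate 2, with proline lower for 6 of 6 numbers. After normalization proline was lower for 5 of 6, and replicate 2 had a difference of 0.033. Without water replicate 2 the normalized log2 change was -0.61, with a limma adjusted p of 6.38e-04. Without replicates 3 and 4 of both groups it was -0.34, and the call was lost (limma, adjusted p = 0.0937).

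CHLM (AT4G25080) encodes the methyltransferase that acts on Mg-protoporphyrin IX, the second step of the chlorophyll branch. Its deposited intensity had a lowest, median and highest value of 0.103, 0.143 and 0.188 in proline samples, against 0.154, 0.201 and 0.301 in water samples. The overlap came from 1 water sample, replicate 2, which lay below proline replicates 5 and 6. CHLM was 1.57-fold lower after normalization (log2 -0.65 ± 0.15 SE, limma, adjusted p = 0.00467) and 1.45-fold lower as deposited (log2 -0.53 ± 0.18 SE, limma, adjusted p = 0.0289). Proline was below water for 6 of 6 replicate numbers on both scales, with deposited log2 differences of -0.90 to -0.26. In both groups the means of successive replicates were ordered alike. They were 0.116, 0.143 and 0.181 in proline replicates 1 and 2, 3 and 4, and 5 and 6, against 0.174, 0.201 and 0.263 in the same water replicates. No single sample removed the normalized call, whose limma adjusted p stayed between 0.00198 and 0.0109 when samples were left out singly. Without replicates 3 and 4 of both groups it was lost (limma, adjusted p = 0.0589), with a log2 change of -0.65.

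Z-ISO (AT1G10830) encodes the zeta-carotene isomerase, which acts between phytoene desaturase and zeta-carotene desaturase on the way to lycopene. Its deposited intensity was the most uneven of the set. It was listed at 0 in proline replicate 1, and the other proline samples lay between 0.0301 and 0.111, against 0.0775, 0.177 and 0.231 as the lowest, median and highest water values. Water replicates 1 and 2 lay inside the proline range, at 0.0799 and 0.0775, and the other water samples lay above it. Without the sample at 0, Z-ISO was 2.19-fold lower after normalization (log2 -1.13 ± 0.39 SE, limma, adjusted p = 0.0342) and 2.33-fold lower as deposited (log2 -1.22 ± 0.39 SE, limma, adjusted p = 0.0278). The low values fell in the same replicate numbers of both groups. With the replicate number as a block, the normalized log2 change was -1.34 ± 0.13 SE (limma, adjusted p = 5.13e-04). Water replicate 1 has no partner in this fit. Leaving it out without a block gave the same log2 change (limma, adjusted p = 0.0138). The deposited values were lower for 5 of 5 numbers, with log2 differences of -1.60 to -1.01. Without the block the call was lost when any of proline replicates 2 to 5 or water replicates 3 to 6 was left out (limma, adjusted p of up to 0.0826). It was also lost with zeros set to the lowest value of their array, where the log2 change was -2.56 (limma, adjusted p = 0.167).

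**Figure D2:**
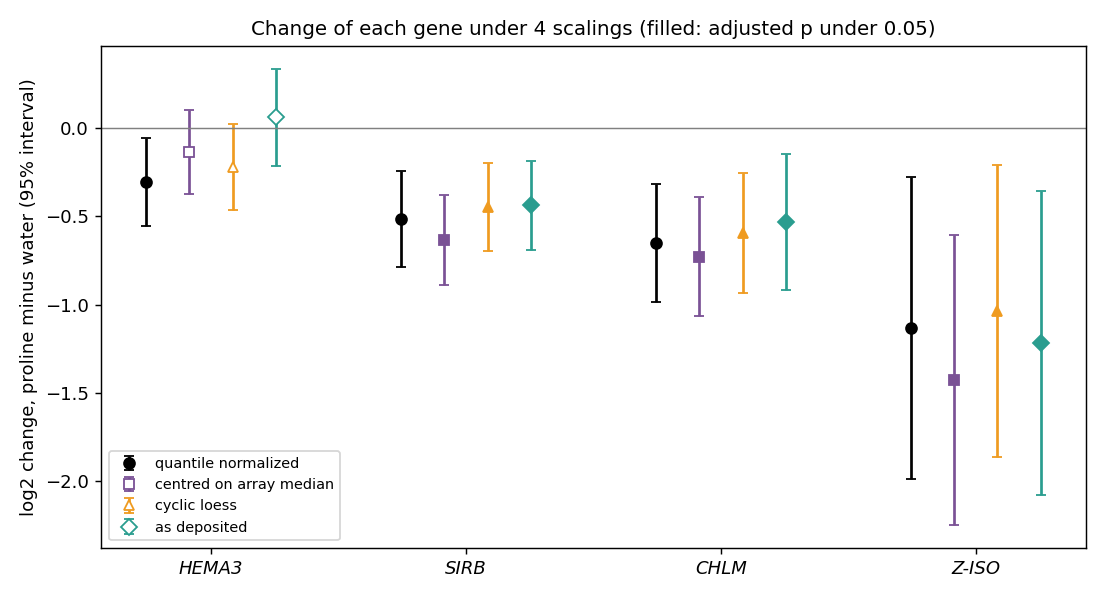
Log2 change, proline minus water, of each gene under 4 scalings of the arrays, with 95% intervals from limma and filled symbols where the adjusted p is under 0.05. SIRB, CHLM and Z-ISO are negative and pass under all 4, while HEMA3 lies between -0.30 and 0.062 and passes after quantile normalization alone.

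The size of the changes depended on the treatment of low values. With 0.1 added to each deposited intensity before log2 and normalization, the log2 changes were -0.70 for Z-ISO, -0.41 for CHLM, -0.31 for SIRB and -0.25 for HEMA3, all still past the threshold (limma, adjusted p = 0.0115, 0.00442, 0.00961 and 0.0424). None of the 4 genes separated the groups completely, on either scale. Of 2674 features with a value on every array, 14.8% had all proline samples below all water samples after normalization and 7.52% as deposited. Water replicate 2 was the lowest water sample for each of the 4 genes as deposited, and for HEMA3, SIRB and CHLM after normalization. For Z-ISO the lowest normalized water value was in replicate 1, at -3.78, next to -3.74 in replicate 2. Successive replicates resembled each other across the array (consensus correlation 0.52), and with replicates 1 and 2, 3 and 4, and 5 and 6 averaged none of the 4 genes passed in limma. The adjusted p were then 0.0586 for CHLM, 0.0665 for SIRB, 0.233 for HEMA3 and 0.241 for Z-ISO, where the proline average of replicates 1 and 2 was missing. When these averages were also blocked by pair, a call was made for CHLM and Z-ISO (limma, adjusted p = 0.0305 and 0.0161) and not for SIRB and HEMA3 (limma, adjusted p = 0.0878 and 0.176).

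The pathway steps were compared with each other through ratios within an array, in which a factor common to the whole array cancels. Of the 6 ratios between members, the 3 with HEMA3 below the line were lower after proline in the values as deposited. The log2 ratio of CHLM to HEMA3 was -1.91 ± 0.19 in proline samples and -1.32 ± 0.22 in water samples (SD, n = 6 each), a difference of -0.59 (exact permutation test, two-sided, adjusted p = 0.00649 over 6 ratios). That of SIRB to HEMA3 was -2.03 ± 0.11 after proline and -1.53 ± 0.25 in water (SD, n = 6 each), a difference of -0.50 with the same adjusted p in the exact permutation test. Both had a raw p of 0.00216, the smallest that an exact permutation test of 6 against 6 samples can give. This test treats the samples as independent, although successive replicates resembled each other (consensus correlation 0.52). With successive replicates averaged, both had an adjusted p of 0.3 in the exact permutation test, where no raw p under 0.1 can be reached. As deposited the groups did not overlap for either ratio, although they overlapped for each gene alone. After quantile normalization they overlapped for both ratios. The highest proline and lowest water ratios were then -1.62 and -1.69 for CHLM, and -1.67 and -1.94 for SIRB. HEMA3 was brighter than the other members in every sample, and an array difference that varies with intensity does not cancel in these ratios. Among the other features with a value on every array, 7.30% had a ratio to HEMA3 that was lower in every proline sample than in every water sample. The ratio of Z-ISO to HEMA3 differed by -1.30 (exact permutation test, 5 proline and 6 water samples, adjusted p = 0.0173) and overlapped by 1 water sample, replicate 1, at -2.56, below the highest proline ratio of -2.50. As deposited the log2 change of HEMA3 was 0.062, against a median of 0.057 over all tested features. The 3 differences therefore lie close to each gene's own change less that median, -0.59 for CHLM, -0.49 for SIRB and -1.28 for Z-ISO. They do not tell the entry step from a typical feature. No difference passed between the sirohaem and the chlorophyll step, with 0.095 in the log2 ratio of SIRB to CHLM (exact permutation test, adjusted p = 0.613) and a higher ratio in 3 of 6 replicate numbers. Z-ISO to CHLM and Z-ISO to SIRB differed by -0.78 and -0.79 and did not pass (exact permutation test, adjusted p = 0.0649 and 0.0779). After quantile normalization, which is not a common factor, the differences to HEMA3 were -0.35 for CHLM, -0.21 for SIRB and -0.84 for Z-ISO, and none passed (exact permutation test, adjusted p = 0.0519, 0.187 and 0.143). With same-numbered samples paired, each of the 3 ratios to HEMA3 was lower in every number with a value, and the adjusted p was 0.075 in the exact sign permutation test. The smallest adjusted p that this test can give over the 6 ratios is 0.0625, so no call was possible in it.

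**Figure D3:**
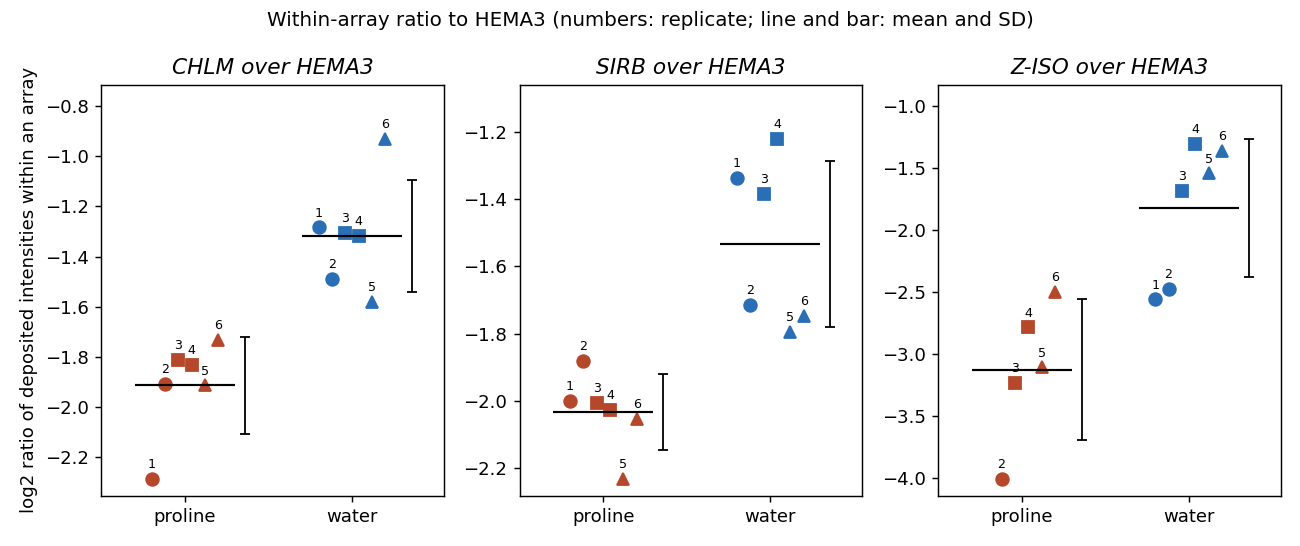
Log2 ratio of the deposited intensities of CHLM, SIRB and Z-ISO to that of HEMA3 on the same array, in proline and water samples. Numbers give the replicate, symbols mark successive replicates, and lines and bars show the mean and SD. The groups are apart for CHLM and SIRB and overlap for Z-ISO.

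The other genes of these pathways were sparsely represented. Of 90 genes of tetrapyrrole synthesis and breakdown, sirohaem use, carotenoid synthesis and cleavage and plastid isoprenoid precursors, 5 had a feature of their own, the 4 members and CHLP. After normalization 4 of the 5 were lower and none higher, against 25.9% lower and 18.3% higher among all tested features. As deposited 3 were lower and 1 higher, against 16.9% and 24.5%. All the lower ones are the members already counted, and the lists too were chosen with earlier results known. CHLP (AT1G74470), the geranylgeranyl reductase that makes the phytyl tail of chlorophyll, had an intensity of 1.91, 2.26 and 2.49 as its lowest, median and highest proline values, against 1.56, 1.83 and 1.93 in water. It was higher as deposited (log2 0.34 ± 0.090 SE, limma, adjusted p = 0.00998), and after normalization its log2 change was 0.12 ± 0.089 SE (limma, adjusted p = 0.305). The ratio of CHLM to CHLP was chosen after both changes were seen, so it is given as a description and is no test. The log2 ratio of CHLM to CHLP was -3.96 ± 0.44 after proline and -3.09 ± 0.27 in water as deposited (SD, n = 6 each), a difference of -0.87 (exact permutation test, p = 0.00433). After normalization the difference was -0.77 with the same p in the exact permutation test, and the 2 groups overlapped on both scales. CHLP was brighter than CHLM in every sample, and an array difference that varies with intensity does not cancel in this ratio.

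A pair of features carried genes for steps downstream of HEMA3 and before the chlorophyll branch, each with 2 genes for the same enzyme, so no single gene can be read from them. Feature 2801, for 5-aminolevulinate dehydratase, had a mean intensity of 0.115 ± 0.0275 in proline samples and 0.162 ± 0.0173 in water samples (SD, n = 6 each). It fell by 0.54 on the log2 scale after normalization and by 0.53 as deposited (limma, adjusted p = 0.00960 and 0.0182). Feature 2077, for uroporphyrinogen decarboxylase, which acts past the branch to sirohaem, had a mean intensity of 0.250 ± 0.0455 in proline samples and 0.301 ± 0.0606 in water samples (SD, n = 6 each). Its log2 change was -0.51 after normalization (limma, adjusted p = 0.0137) and -0.26 as deposited (limma, adjusted p = 0.203). No gene of haem and bilin synthesis, chlorophyll breakdown, carotenoid cleavage or isoprenoid precursor synthesis had a feature of its own.

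The most similar profiles were sought among the other features with 1 gene and a value on every array. The measure was the root mean square difference of normalized log2 values over the 12 arrays (11 for Z-ISO). Each profile was centred on its own mean. For CHLM the nearest were AT4G24750 (0.172), AT5G52810 (0.189) and AT1G30700 (0.193), against a median of 0.539 over 534 candidates. The nearest to SIRB were AT1G50390 (0.150), AT4G13550 (0.154) and AT4G13680 (0.177). AT4G13680 (0.136) was also among the nearest to HEMA3, with AT4G39690 (0.106) and AT3G09080 (0.133). Z-ISO was nearest to AT5G52960 (0.413), AT4G25290 (0.462) and CHL (0.474), the last of which encodes the plastid lipocalin. Medians over the candidates were 0.481 for SIRB, 0.456 for HEMA3 and 0.907 for Z-ISO. The members were not each other's nearest. HEMA3 ranked 14th from SIRB and 23rd from CHLM, and CHLM ranked 13th from Z-ISO. The arrays share successive replicates and the treatment, so these likenesses are a description of 12 arrays.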

How the data were processed

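One-colour arrays of 12 samples were analysed, 6 proline and 6 water, grouped by their titles. The authors deposited a relative intensity per feature, linear, from 0 to a ceiling of 100; their background correction and scaling are not given in the sources used. Zeros were taken as missing, log2 intensities were quantile normalized, and features with at least 4 of 6 values in each group were tested two-sided with limma 3.58.1 under R 4.3.3 (lmFit, then eBayes, without a block) and Benjamini-Hochberg adjustment over all 2861. The fit was run on simulated data with independent samples, so its error rate under the resemblance of successive replicates was not tested. Random blocks used statmod 1.5.0, and exact permutation tests used scipy 1.17.1. Levels are deposited intensities with zeros included. The number of arrays limits the precision, and signal over background was not given.

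Both groups carry replicate numbers 1 to 6. Over 2674 features the deviations of same-numbered samples correlated at 0.184 to 0.403, so the numbers pair the samples, on the evidence of the values, since the labels give no meaning for them. Gene names come from the old platform annotation of GEO, and 690 of 692 matched a TAIR10.1 locus. The genes named are the members, the pathway list genes with a feature of their own, and the 3 nearest profiles of each member. The members and lists were chosen with earlier results of these data known. The alternatives changed the scaling, the filter, the treatment of zeros, blocks, averaged pairs, array weights, and samples or pairs left out. No sequences were used here.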

Additional observations from a re-analysis of the deposited data

How the results depend on the processing

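Across the alternatives run, SIRB, CHLM and Z-ISO kept a negative log2 change in each, and HEMA3 did not. A pseudocount of 0.1 gave smaller changes, of -0.41 for CHLM, -0.31 for SIRB, -0.25 for HEMA3 and -0.70 for Z-ISO, each still a call; adding a constant shrinks the log2 change of dim features. As deposited HEMA3 had a log2 change of 0.062, also with the replicate block or with the pairs averaged (limma, adjusted p = 0.717, 0.497 and 0.834). It lost its call at -0.13 after median scaling and -0.22 after cyclic loess. It also lost it at -0.30 with the pairs averaged, with or without the pair as a block, and with the pair as a random block (limma, adjusted p = 0.176, 0.233 and 0.116). Leaving out replicates 1 and 2, 3 and 4, or 5 and 6 from both groups gave -0.37, -0.25 and -0.30 (limma, adjusted p = 0.0631, 0.253 and 0.0507). With the pairs averaged CHLM was -0.65, SIRB -0.51 and Z-ISO -0.91, none of them a call. Blocked by pair besides, SIRB missed at -0.51, while CHLM at -0.65 and Z-ISO at -1.41 passed. Averaged as deposited, an alternative added after the data were seen, they were -0.53, -0.44 and -0.95 (limma, adjusted p = 0.149, 0.0936 and 0.215). With replicates 3 and 4 left out of both groups CHLM was -0.65, SIRB -0.34 and Z-ISO -0.96, and without 5 and 6 Z-ISO was -1.10, none of them a call (limma, adjusted p = 0.0589, 0.0937, 0.248 and 0.105). With zeros at the lowest value Z-ISO was -2.56, and it could not be fitted where a value on all 12 arrays was required. Samples left out singly gave -0.74 to -0.55 for CHLM, -0.61 to -0.45 for SIRB, -0.36 to -0.24 for HEMA3 and -1.34 to -0.91 for Z-ISO. The replicate block changed no call of the 4 genes on the normalized scale (CHLM -0.65, SIRB -0.51, HEMA3 -0.30, Z-ISO -1.34). In that order the limma adjusted p were 0.00237, 0.0206, 0.0185 and 5.13e-04. Features changed numbered 1263, against 686 with the pairs averaged, 774 when these were blocked by pair, and 664 for averages of the values as deposited. Features lower numbered 740, against 483 as deposited, 351 with the pairs averaged, 386 when these were blocked by pair, and 220 averaged as deposited. Features higher numbered 523, against 702, 335, 388 and 444 in the same settings. With the pair as a random block and no sample averaged or left out, 887 features changed. The averaged fits hold fewer samples, and the cause of these shifts was not tested.

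The ratios to HEMA3 lost their call after quantile normalization (-0.35 for CHLM, -0.21 for SIRB, -0.84 for Z-ISO), with same-numbered samples paired (-0.59, -0.50 and -1.45) and with the pairs averaged (-0.59, -0.50 and -1.08). The last 2 could not have given a call, since no adjusted p under 0.0625 can be reached with the samples paired and no p under 0.1 with the pairs averaged. Without replicate 2 of both groups, added after the data were seen, that of Z-ISO was -1.21 (exact permutation test, adjusted p = 0.0635). Singly left out samples gave -0.65 to -0.52 for CHLM, -0.55 to -0.44 for SIRB and -1.46 to -1.08 for Z-ISO, all with a call. Those for Z-ISO to CHLM ran from -0.93 to -0.58 and for Z-ISO to SIRB from -0.98 to -0.54. The first passed without water replicate 1 or 2 (-0.93 and -0.88) and the second without water replicate 1 (-0.98). SIRB to CHLM ran from -0.025, without water replicate 6, to 0.16. The promoter motif comparison was not run, because no sequences were used here. No sample of the 8 groups of values passed Dixon's limit for an outlying value.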
